A study of Mus musculus with 8 samples.

Results

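Piezo1, Piezo2, Trpv2, Trpv4, Pkd1, Pkd2, Tmem63a and Tmem63b encode channels, or channel partners, that respond to stretch, pressure or swelling of the cell membrane, and their transcripts were measured in mouse brain endothelial cells (ECs) with and without an active form of the kinase MAP2K1. The 8 genes were chosen by name and found by their Ensembl identifiers among the 49315 gene identifiers of the count files, and all 8 passed the filter on low counts that left 16887 genes to test. Transcripts of Piezo1, Piezo2, Trpv2 and Tmem63a were higher in mutant ECs, Piezo2 by 17.4-fold, while Trpv4, Pkd1, Pkd2 and Tmem63b did not pass the test.

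The study asked how active MAP2K1 in ECs changes gene expression at the stage when vascular malformations form in the brain. RNA of CD31 bead-isolated brain ECs was sequenced from 4 mutant and 4 wild-type pups at postnatal day 9 (P9), 1 library per pup. Mutant pups had the genotype R26 GT-Map2k1-GFP/+; Tg-Cdh5CreER+/-, and the controls were labelled wild type, although the study describes the controls in one place as Tg:Cdh5-CreER pups. Both parent lines had been backcrossed to C57BL/6J, both groups received tamoxifen under the skin at P1, and controls were drawn from the litters of the mutants. In the mutants the Cdh5 promoter limits the CreER recombinase to ECs, and recombination lets the CAG promoter at the Rosa locus express Map2k1 (p.K57N) cDNA together with GFP. As a model the mice are limited in that the cDNA is expressed above the endogenous level, no group expresses normal MAP2K1 from the same locus, and only a part of the isolated ECs carried the recombined allele.

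Mechanosensitive channels open when force on the membrane or on tethered proteins changes their shape, and most let calcium and other cations into the cell. In ECs, PIEZO1 is the best known of them: blood flow opens it, and vessels of embryos that lack it do not remodel normally. PIEZO2, its close relative, is best known as the touch and proprioception channel of sensory neurons. TRPV2 and TRPV4 are calcium-permeable channels of the vanilloid TRP family, polycystins 1 and 2 (Pkd1 and Pkd2) act in the primary cilium and the endoplasmic reticulum, and TMEM63A and TMEM63B are relatives of the OSCA channels that plants use to sense osmotic change.

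The libraries held 24833373 to 34196955 counts on genes (median 29821690). Map2k1 checked the labels, with 12692 to 18734 scaled counts in mutant and 1506 to 1762 in wild-type libraries (log2 fold change 3.18). Counts below are scaled by edgeR's TMM factors to the mean library size, and a gene is said to have risen or fallen where edgeR's quasi-likelihood test gave an adjusted p under 0.05 over all 16887 genes. All 10 endothelial markers were detected, with summed levels of 365498 to 443515 scaled counts in mutant and 343923 to 416685 in wild-type libraries. The libraries differed in markers of other cell types, where 21.5% of all genes tested rose and 22.9% fell. All 6 oligodendrocyte markers fell (sums of 986 to 1953 against 2976 to 8242), as did all 6 red blood cell markers (2582 to 8473 against 15764 to 27354) and 4 of 7 neuron markers (628 to 877 against 1033 to 1751). The astrocyte sums (18553 to 22226 against 11036 to 13118 scaled counts, mostly Gja1) and the lymphatic sums (9522 to 16096 against 8613 to 9512, mostly Flt4) were higher in every mutant library. Of the 7 astrocyte markers only Gja1 rose, Aldh1l1 fell, and the median log2 fold change was -0.58. Of the 4 lymphatic markers only Flt4 rose. These 2 sums thus follow 1 gene each and not their lists. None of the marker genes was at 0 throughout. In RNA of pooled cells, fewer cells of a type and less RNA per cell cannot be told apart, and the part of these shifts in the results below was not tested.

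**Figure D1:**
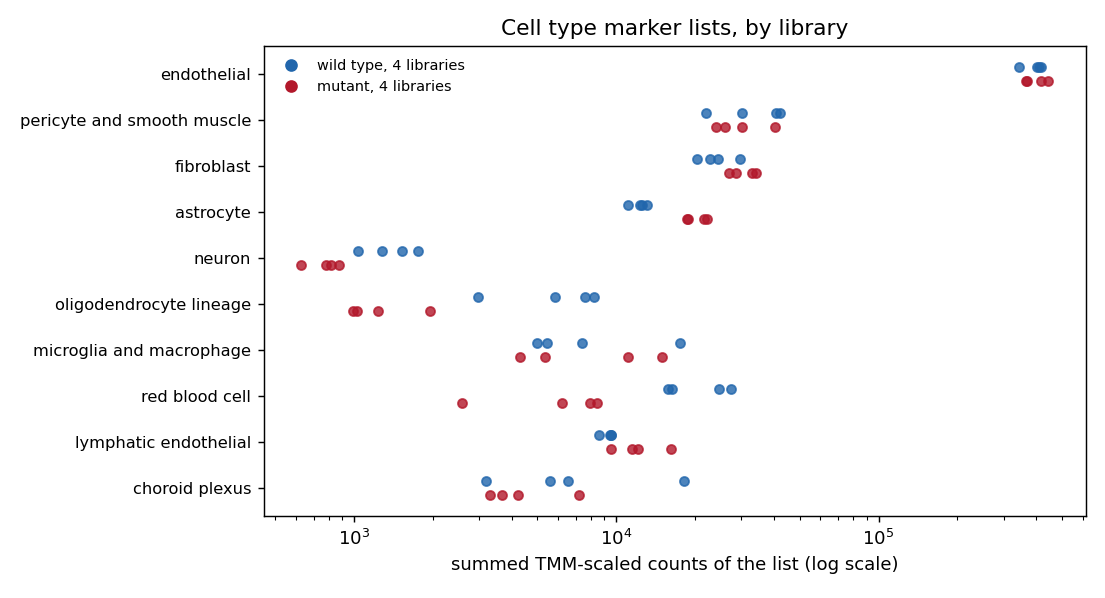
Summed TMM-scaled counts of 10 lists of cell type markers (x axis, log scale) in each library, with 4 wild-type libraries in blue and 4 mutant libraries in red. The oligodendrocyte, neuron and red blood cell sums do not overlap between the groups and are lower in mutants. The astrocyte sums, mostly Gja1, and the lymphatic sums, mostly Flt4, do not overlap and are higher in mutants. The endothelial sums overlap and lie to the right of all others.

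Of the 8 genes, 4 rose and 0 fell, where 21.5% of all genes tested rose and 22.9% fell. None of the 8 was lower at an unadjusted p under 0.05 or by DESeq2, since all 8 fitted log2 fold changes were above 0. With the study's further limit of a log2 fold change over 1, Piezo2 and Trpv2 were called higher (2 of 8) and 0 were called lower, against 5.90% and 8.05% of all genes tested. The 4 that rose were also the 4 without overlap between the groups, which held for 42.5% of all genes tested. The median log2 fold change was 0.26 over the 8 genes and -0.02 over all genes.

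**Figure D2:**
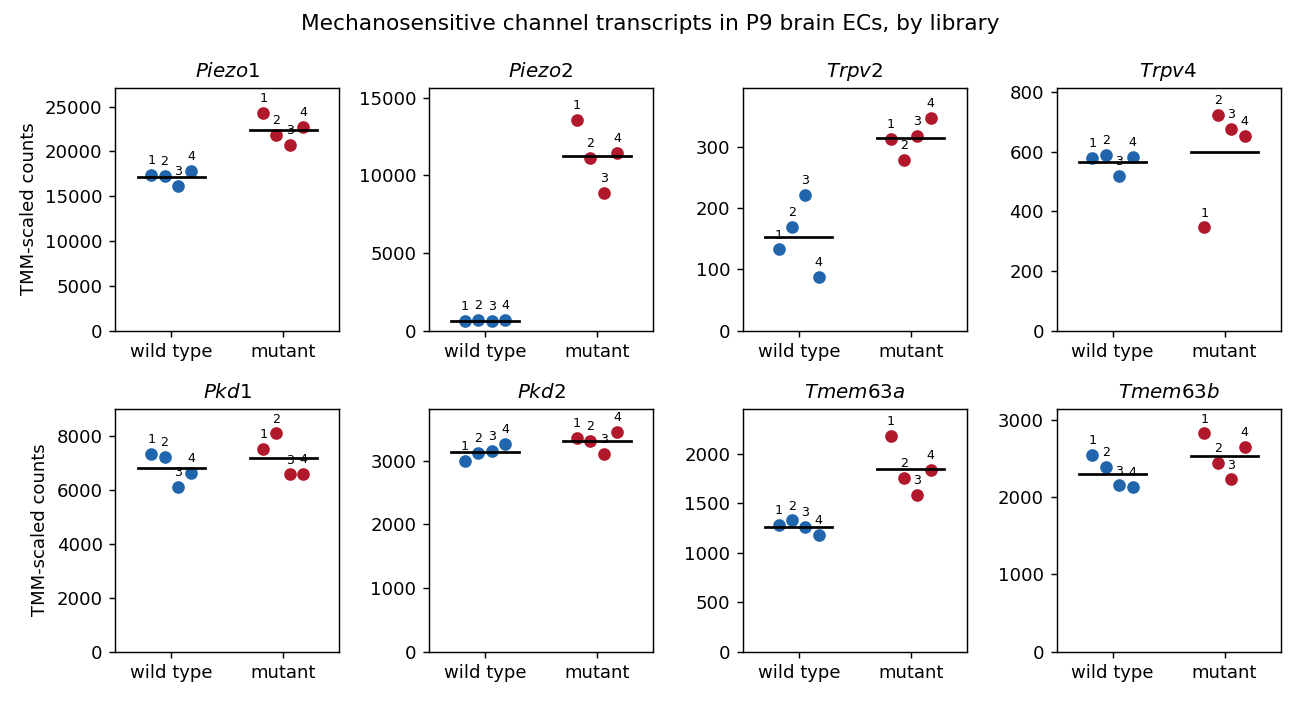
TMM-scaled counts (y axis, from 0) of each channel gene in the 4 wild-type (blue) and 4 mutant (red) libraries, numbered by replicate, with the group mean as a line. Piezo2, Piezo1, Trpv2 and Tmem63a separate the groups, and Trpv4 has 1 mutant library, number 1, far below the rest.

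Promoter sequences are shown for genes of the group that rose, so that the windows can be compared. They are the 250 bases before the RefSeq transcription start in GRCm38.p6, read 5′ to 3′ on the strand of the gene. A window was at hand for 7 of the 8 genes, and Piezo2 had none. Capitals mark matches, on either strand, to 5 short motifs: CCGGAA (bound by ETS factors, which ERK kinases phosphorylate), TGANTCA (AP-1), CATTCC (TEAD), CCACCC (KLF) and TATAAA (the TATA box). The first window, of Piezo1, is chr8:122551330-122551579 (minus strand), that of Tmem63a is chr1:180942268-180942517 (plus strand), and the last is the most upstream of the 3 windows of Trpv2, chr11:62574236-62574485 (plus strand).
Piezo1: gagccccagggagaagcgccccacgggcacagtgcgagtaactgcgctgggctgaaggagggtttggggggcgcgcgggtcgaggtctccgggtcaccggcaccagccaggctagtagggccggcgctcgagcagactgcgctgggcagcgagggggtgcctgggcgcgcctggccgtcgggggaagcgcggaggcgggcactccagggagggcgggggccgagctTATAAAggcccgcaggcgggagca
Tmem63a: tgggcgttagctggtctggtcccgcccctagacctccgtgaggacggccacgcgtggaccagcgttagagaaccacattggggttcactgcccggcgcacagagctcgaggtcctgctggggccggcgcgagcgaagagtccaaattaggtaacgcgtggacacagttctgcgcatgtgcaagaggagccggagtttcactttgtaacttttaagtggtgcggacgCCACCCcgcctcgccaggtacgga
Trpv2: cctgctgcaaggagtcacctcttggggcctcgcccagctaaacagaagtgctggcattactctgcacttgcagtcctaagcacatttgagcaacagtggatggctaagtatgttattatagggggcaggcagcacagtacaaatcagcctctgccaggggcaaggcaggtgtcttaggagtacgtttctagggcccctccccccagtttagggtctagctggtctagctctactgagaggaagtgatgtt

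The Piezo1 window is rich in G and C (74%, with 26 CpG dinucleotides) and holds 1 TATAAA match, 24 bases before the start, a match found in 12.4% of the 32851 mouse windows. The Tmem63a window (62%, 23 CpGs) holds 1 KLF match, also 24 bases before the start, found in 28.1% of all windows. The Trpv2 window shown (53.2%, 2 CpGs) holds none of the motifs and is close to the median window, which has 52.4% G and C and 6 CpGs. Among the genes that did not pass the test, the Trpv4 window held 4 KLF matches and the Pkd2 window 1 TEAD match, 43 bases before the start. CATTCC was also found 188 bases before the start of the third Trpv2 window, and is present in 12.6% of all windows. No window of these 7 genes held CCGGAA or TGANTCA, which 12% and 6.75% of all windows hold. Piezo2 had no window, so its promoter was not searched. No binding was measured here, and a match describes letters only.

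Piezo1 (ENSMUSG00000014444, GRCm38 chr8:122481698-122551329, minus strand), the shear-responsive channel of ECs, had 24254, 21849, 20761 and 22691 scaled counts in mutant libraries 1 to 4. The wild-type libraries had 17392, 17264, 16099 and 17791. The groups did not overlap, and Piezo1 was the most abundant of the 8 per length in both groups. Its mean rose from 17136 ± 727 to 22389 ± 1473 (SD, n = 4 each) (1.31-fold, log2 fold change 0.39, SE 0.07, 95% interval 0.22 to 0.55, edgeR adjusted p = 0.00196). Of its exon bases, 24.6% lie under exons of Ctu2 on the opposite strand, and whether counting used strand is not given in the sources used here. Ctu2 itself was assigned a mean of 433 counts in mutant and 421 in wild-type libraries. Piezo1 is also a channel of red blood cells, whose 6 markers all fell in the libraries in which Piezo1 rose. The part of any shift in cell types in Piezo1 was not tested.

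Piezo2 (ENSMUSG00000041482, chr18:63010213-63387183, minus strand), the touch channel of sensory neurons, had 613, 659, 622 and 689 scaled counts in the wild-type libraries. In the mutant libraries it had 13580, 11102, 8880 and 11442. The groups were far apart, since the lowest mutant library was 12.9-fold above the highest wild-type library. The mean rose from 646 ± 34.8 to 11251 ± 1924 (SD, n = 4 each), a log2 fold change of 4.12 (SE 0.13, 95% interval 3.83 to 4.41, edgeR adjusted p = 1.27e-07). Piezo2 ranked 1 of 16887 genes by the p of this edgeR test and 64 by log2 fold change. First place depends on the test, since the study, with DESeq2, named Col15a1 as the most significant gene. The study also reported Piezo2 among the increased genes. Of the 7 neuron markers, 4 fell, and Rbfox3 had means of 294 scaled counts in mutant and 129 in wild-type libraries and did not pass (edgeR adjusted p = 0.0514). Their part in Piezo2 was not tested. In wild-type libraries Piezo2 had 653 to 719 unscaled counts.

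Because Piezo1 and Piezo2 are counted in the same library, their ratio needs no scaling between libraries. Per kilobase of exon, Piezo2 was at 2.41, 2.60, 2.63 and 2.64% of Piezo1 in wild-type libraries. It was at 38.2, 34.7, 29.2 and 34.4% in mutant libraries. Piezo1 remained the more abundant transcript in every library, and the ratios of the groups did not overlap. The mean log2 ratio moved from -5.28 ± 0.0637 to -1.56 ± 0.161 (SD, n = 4 each), a difference of 3.72 (p = 0.0286 by a two-sided exact permutation test, which cannot give less with 4 against 4 libraries). Together the Piezo transcripts rose from 59.6 ± 2.52 to 102 ± 9.40 RPKM, the reads scaled for exon length and library size, of which Piezo2 made up 2.51% in wild-type and 25.5% in mutant ECs. Since only a part of the mutant ECs carried the recombined allele, the ratio in the recombined cells alone was not measured.

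Trpv2 (ENSMUSG00000018507, chr11:62574486-62600515, plus strand), a calcium-permeable channel known from macrophages as well as from muscle and ECs, was the least abundant of the 8 genes per length. It had 313, 279, 318 and 348 scaled counts in the mutant and 133, 169, 222 and 87.5 in the wild-type libraries. Here too the groups did not overlap, but the wild-type values were widely spread. The mean rose 2.05-fold, from 153 ± 57.0 to 314 ± 28.5 (SD, n = 4 each), with a log2 fold change of 1.04 (SE 0.24, 95% interval 0.51 to 1.56, edgeR adjusted p = 0.00519). The rise passed the test throughout, but its place over the log2 limit of 1 was lost with upper-quartile scaling (0.97) and without wild-type library 1 (0.99) or 4 (0.84). In the wild-type libraries Trpv2 followed the order of Csf1r, a macrophage receptor gene with 1794, 2532, 7023 and 1663 scaled counts. That order was not particular to macrophage markers. The smooth muscle markers Acta2 (2102, 2620, 3295 and 1307) and Tagln (344, 412, 512 and 276) had it too, and the macrophage marker Mrc1 (150, 212, 959 and 427) did not. In the mutant libraries Trpv2 did not follow Csf1r, which had 1121, 1585, 5362 and 3950. None of the 8 microglia and macrophage markers passed the test (sums of 4306 to 14985 in mutant and 4974 to 17540 in wild-type libraries), although 3 were higher without wild-type library 3, and their part in Trpv2 was not tested.

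Trpv4 (ENSMUSG00000014158, chr5:114622152-114658421, minus strand), a channel opened by cell swelling and by lipid messengers and known for calcium entry in ECs, did not pass the test. It had 346, 722, 677 and 654 scaled counts in mutant and 579, 588, 519 and 581 in wild-type libraries. Mutant library 1 was below, and the other 3 mutant libraries above, every wild-type library. The means were 600 ± 172 and 567 ± 32.3 (SD, n = 4 each), with a log2 fold change of 0.08 (SE 0.19, 95% interval -0.34 to 0.51, edgeR adjusted p = 0.750). Without mutant library 1 Trpv4 passed the test (log2 fold change 0.30, edgeR adjusted p = 0.0238), so the call rested on that library, and without mutant library 2 the value was -0.02.

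Pkd1 (ENSMUSG00000032855, chr17:24549950-24596514, plus strand) encodes polycystin 1, a large membrane protein that assembles with polycystin 2. It had 7502, 8081, 6564 and 6574 scaled counts in mutant and 7336, 7217, 6103 and 6605 in wild-type libraries. The groups overlapped, with means of 7180 ± 744 and 6816 ± 573 (SD, n = 4 each) and a log2 fold change of 0.08 (95% interval -0.13 to 0.28, edgeR adjusted p = 0.536). Pkd2 (ENSMUSG00000034462, chr5:104459450-104505819, plus strand), the cation channel of the pair, had 3360, 3308, 3111 and 3448 scaled counts in mutant and 2998, 3127, 3150 and 3263 in wild-type libraries. These libraries overlapped as well (log2 fold change 0.08, 95% interval -0.06 to 0.21, edgeR adjusted p = 0.327). Of the Pkd1 exon bases, 4.08% lie under exons of Tsc2 on the opposite strand.

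Tmem63a (ENSMUSG00000026519, chr1:180942344-180975112, plus strand) encodes an OSCA-type channel that is needed for normal myelination. It had 2184, 1760, 1587 and 1839 scaled counts in mutant and 1282, 1327, 1259 and 1184 in wild-type libraries. The groups did not overlap, and the mean rose 1.46-fold, from 1263 ± 59.7 to 1843 ± 251 (SD, n = 4 each), with a log2 fold change of 0.54 (SE 0.10, 95% interval 0.33 to 0.76, edgeR adjusted p = 0.00114). The 6 oligodendrocyte markers, from a cell type in which Tmem63a is also known, all fell in the same libraries. The part of any shift in cell types in Tmem63a was not tested. Exons of 2210411M09Rik cover 3.50% of its exon bases on the opposite strand.

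Tmem63b (ENSMUSG00000036026, chr17:45660171-45686905, minus strand), its closest relative among the 8, did not pass the test. It had 2827, 2446, 2232 and 2652 scaled counts in mutant and 2551, 2394, 2155 and 2131 in wild-type libraries, which overlapped. The log2 fold change was 0.14 (95% interval -0.06 to 0.34, edgeR adjusted p = 0.240), and 5.65% and 2.08% of its exon bases lie under exons of Gm16172 and Mrpl14 on the opposite strand. Per length, Tmem63a was at 57.0 to 66.3% of Tmem63b in wild-type and 78.7 to 87.7% in mutant libraries. Pkd2 was at 56.9 to 71.9% of Pkd1 in wild-type and 57.0 to 73.1% in mutant libraries, so this ratio overlapped where that of the Tmem63 genes did not.

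The order of levels per length differed between the groups mainly by the place of Piezo2. In wild-type ECs Piezo1 was highest at 58.1 ± 2.47 RPKM (SD, n = 4), followed by Pkd1 (16.2 ± 1.36) and Tmem63b (15.3 ± 1.33), whose ranges overlapped. Pkd2 (10.4 ± 0.359) and Tmem63a (9.47 ± 0.448) came next, also with overlapping ranges, then Trpv4 (4.69 ± 0.267). Piezo2 (1.49 ± 0.0805) and Trpv2 (1.15 ± 0.428) were lowest and overlapped.

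In mutant ECs Piezo1 was again highest, at 75.9 ± 4.995 RPKM (SD, n = 4), but Piezo2 was second at 26.0 ± 4.45, above the range of every gene below it. Pkd1 (17.1 ± 1.77), Tmem63b (16.8 ± 1.70) and Tmem63a (13.8 ± 1.88) overlapped with their neighbours, and Pkd2 (10.96 ± 0.473), Trpv4 (4.96 ± 1.42) and Trpv2 (2.36 ± 0.214) followed without overlap. The sum over the 8 genes was 117 ± 4.32 RPKM in wild-type and 168 ± 12.9 in mutant ECs. Mutant levels are means over ECs with and without the recombined allele, and the order within either kind of cell was not measured. With the length of the longest protein-coding transcript in place of the whole exon length, a choice made after seeing the data, Piezo1 stayed highest in both groups and Piezo2 second in mutant ECs, but its range then overlapped that of Tmem63b, and Pkd1 moved below Tmem63b and Pkd2.

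**Figure D3:**
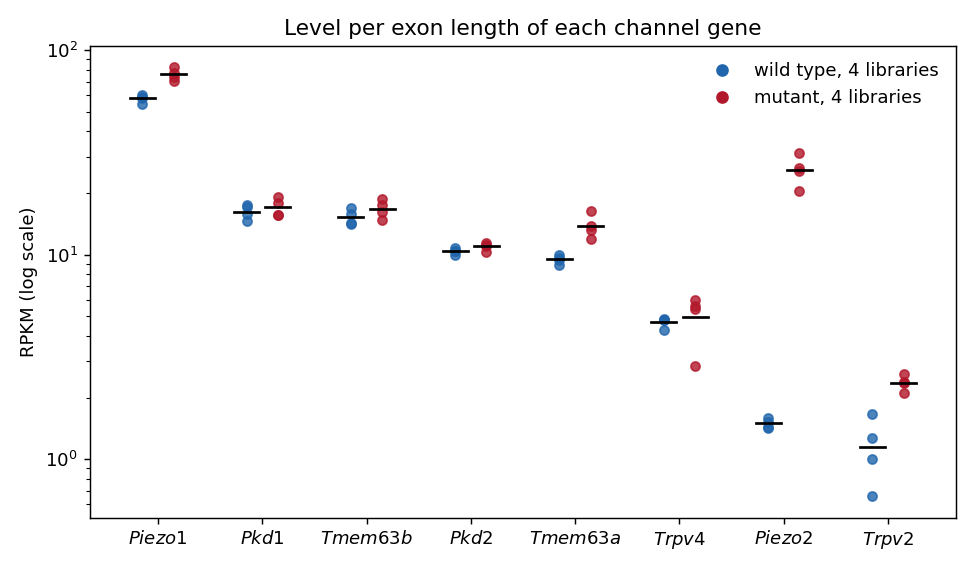
RPKM, reads scaled for exon length and library size (y axis, log scale), of each channel gene in the 4 wild-type (blue) and 4 mutant (red) libraries, with the group mean as a line. Genes are ordered by their wild-type mean, and Piezo2 is the one that moves from among the lowest levels to the second highest.

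The library descriptions start with a number that takes 3 values, each shared by libraries of both groups, and the labels do not say what it marks. Within these 3 sets of libraries (2 per group in the first and 1 per group in the others), Piezo2 was higher in mutant libraries by 4.27, 3.83 and 4.05 on the log2 scale. Piezo1 was higher by 0.41, 0.37 and 0.35, Tmem63a by 0.59, 0.33 and 0.63, and Trpv2 by 0.97, 0.51 and 1.97. Since the groups did not overlap for these 4 genes, any such split had to give them 1 sign, which is thus no further evidence. Only the sizes could differ between sets, and among the 4 that of Trpv2 varied most. Trpv4 differed by -0.22, 0.38 and 0.17, Pkd1 by 0.10, 0.10 and -0.01, Pkd2 by 0.12, -0.02 and 0.08, and Tmem63b by 0.09, 0.05 and 0.32.

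The genes most like each channel gene over the 8 libraries were sought by Pearson correlation of log2 CPM (reads scaled for library size) among 11400 genes, as a description. Where a channel gene differs between mutant and wild-type ECs, the 8 points form 2 clusters, and any gene with a similar difference correlates with it. For such channel genes r within groups (of deviations from the group means) is printed. The genes were still picked by r over all 8 libraries. The within-group r comes from the same values, so it can be high through that choice and does not rank the genes. For Piezo2 the nearest were Cd109, Col15a1 and Kcne3 (within-group r of 0.88, 0.86 and 0.86), which themselves differed by log2 fold changes of 3.72, 5.28 and 5.08. For Piezo1 they were Sema3f, Cd200 and Cdh5 (0.98, 0.98 and 0.97), for Tmem63a Pcdhgb6, Lypla2 and H13 (0.98, 0.96 and 0.97), and for Trpv2 Abcc3, Galk2 and C1qtnf12 (0.94, 0.95 and 0.93). The nearest to Pkd1 were Pomt2, Tspan9 and Stx16 (r of 0.97, 0.97 and 0.96 over all 8 libraries) and those to Pkd2 were Rspry1, Cep120 and Heca (0.97, 0.96 and 0.96). Prpf6, Mrpl41 and Btrc were nearest to Tmem63b (0.99, 0.98 and 0.96), and Rad54l, Elac2 and Gulp1 to Trpv4 (0.89, 0.89 and 0.88).

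Other genes around these channels are described next, list by list, with the 3 of smallest p in each list given with values. Genes named beside them without a rule were chosen after their values were seen. Of 28 other channels reported to be gated or modulated by stretch, 16 passed the filter. Of these, 7 rose and 1, the acid-sensing Asic1, fell (median log2 fold change 0.24). Over all genes tested 21.5% rose and 22.9% fell, and no list was tested as a set. Trpc6, a diacylglycerol-activated cation channel known from smooth muscle and podocytes, had 1521, 1579, 1271 and 2129 scaled counts in mutant and 49.7, 47.9, 81.3 and 26.4 in wild-type libraries. It rose more steeply than Piezo2 by its fitted log2 fold change of 4.96 (SE 0.28, edgeR adjusted p = 1.40e-06), a difference between the genes that was not tested. The 11 pericyte and smooth muscle markers overlapped in their sums (23921 to 40374 in mutant and 21933 to 41967 in wild-type libraries), with Abcc9, Kcnj8 and Tagln higher and 0 lower.

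Tmem120a, a multipass membrane protein once proposed as a pain-sensing mechanical channel, rose from 191 to 443 mean scaled counts (log2 fold change 1.21, edgeR adjusted p = 8.63e-05). Kcnj2, the inward rectifier potassium channel that sets the membrane potential of ECs, rose from 4700 to 8620 (0.87, edgeR adjusted p = 0.000387). Kcnma1, Panx1 and Ano1 rose as well. Of the 5 subunits of the volume-regulated anion channel, which opens when cells swell, 4 passed the filter. Against 21.5% of all genes tested, 3 of the 4 rose. These were Lrrc8c (log2 fold change 0.83), Lrrc8d (0.90) and Lrrc8b (0.37), with edgeR adjusted p of 0.000203, 0.00437 and 0.00681. Lrrc8a, the subunit every such channel needs, was at 1005 mean scaled counts in mutant and 1038 in wild-type libraries and did not pass.

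Of 9 genes for proteins reported to bind or tune Piezo channels, 3 rose and 0 fell (median 0.22). Of all genes tested, 21.5% rose and 22.9% fell. None of the 9 was lower at an unadjusted p under 0.05 or by DESeq2. Mdfi, whose product belongs to a family of auxiliary subunits that slow Piezo inactivation, had 1048, 878, 765 and 1009 scaled counts in mutant and 322, 333, 346 and 332 in wild-type libraries (log2 fold change 1.47, edgeR adjusted p = 7.09e-06). Its relative Mdfic had means of 1054 and 905 and did not pass (edgeR adjusted p = 0.0907). Cdh5, the VE-cadherin of endothelial junctions and the gene whose promoter drives the CreER, and Pecam1, which encodes the CD31 used to isolate the cells, rose by log2 fold changes of 1.11 and 0.53 (edgeR adjusted p = 6.04e-05 and 0.00196).

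Among 13 genes of flow sensing and of signalling from Piezo1, 3 rose and 6 fell (median -0.16). Over all genes tested the shares were 21.5% and 22.9%. Klf2, a transcription factor that laminar flow induces, had 2848, 3461, 4347 and 2271 scaled counts in mutant and 11498, 9688, 9873 and 11428 in wild-type libraries. Klf4, its relative with the same known response, fell from a mean of 35240 to 13363. The libraries did not overlap for either gene, with log2 fold changes of -1.72 and -1.40 (edgeR adjusted p = 4.38e-05 and 0.000101). The others that fell were Nos3, the endothelial nitric oxide synthase, with Kdr, Ramp2 and Gna11. P2ry2, the ATP receptor that acts after Piezo1 opens, rose from 184 to 421 (log2 fold change 1.20, edgeR adjusted p = 0.000182), as did Capn1 and Plxnd1.

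The 22 target genes of Yap and Taz, the coactivators that respond to stiffness and stretch, moved both ways. Of 21 tested, 9 rose and 7 fell (median 0.29), against 21.5% and 22.9% of all genes tested. Igfbp3, a secreted binding protein of insulin-like growth factors, rose from 5599 to 84380 mean scaled counts (log2 fold change 3.91, edgeR adjusted p = 1.71e-06), and Myof, a membrane repair protein, by 1.87 (edgeR adjusted p = 8.61e-06). Tgfb2, a growth factor, fell by 1.54 on the log2 scale (edgeR adjusted p = 2.03e-05). The widely used targets Ccn1 and Ccn2 went in opposite directions, with log2 fold changes of -1.42 and 1.12 (edgeR adjusted p = 0.000212 and 9.16e-05).

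Calcium that enters through such channels, or from stores, can act through calcineurin and NFAT. Of 19 genes of store-operated entry and NFAT signalling, 18 passed the filter. Of these, 5 rose and 3 fell (median 0.21), against 21.5% and 22.9% of all genes tested. Orai2, a pore subunit of store-operated channels, rose by a log2 fold change of 1.42 and Itpr1, a release channel of the endoplasmic reticulum, by 0.49 (edgeR adjusted p = 0.000684 and 0.00264), along with Stim1, Ppp3ca and Ppp3r1. Nfatc4, an NFAT transcription factor, fell by 0.93 on the log2 scale (edgeR adjusted p = 0.000185), along with Nfatc3 and Itpr3.

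Around the polycystins, 14 of 15 genes for their maturation and for the primary cilium passed the filter. Of these, 4 rose and 6 fell (median -0.20), against 21.5% and 22.9% of all genes tested. Those that fell serve the cilium. Kif3b, a motor of transport into it, fell by 0.64 on the log2 scale (edgeR adjusted p = 0.000143), and Bbs1, of the complex that sorts ciliary membrane proteins, had means of 80.4 scaled counts in mutant and 227 in wild-type libraries (log2 fold change -1.49, edgeR adjusted p = 0.000313). Bbs2, Ift80, Ift88 and Cep290 fell too. Among those that rose, Ganab, Prkcsh and Sec63 serve the maturation of polycystins in the endoplasmic reticulum. Tulp3, which carries polycystins into the cilium, rose by 0.44 (edgeR adjusted p = 0.00163). Pkd1 and Pkd2, the clients of these proteins, did not pass the test, as given above.

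**Figure D4:**
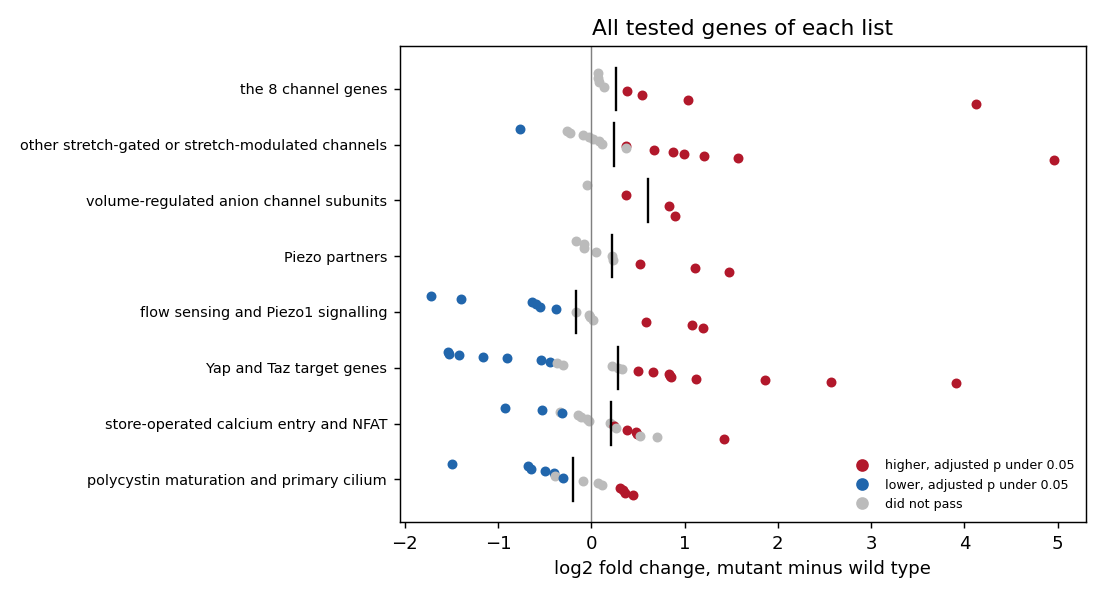
Log2 fold change, mutant minus wild type (x axis), of every tested gene in the 8 lists, with the list median as a vertical bar, genes that rose in red, genes that fell in blue and genes that did not pass in grey. The flow sensing, Yap and Taz, calcium and cilium lists have genes on both sides of 0. The 8 channel genes, the Piezo partners and the volume-regulated anion channel subunits have none that fell, where 22.9% of all genes tested fell. These lists are short, with 8, 9 and 4 genes tested, and no list was tested as a set.

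**Figure D5:**
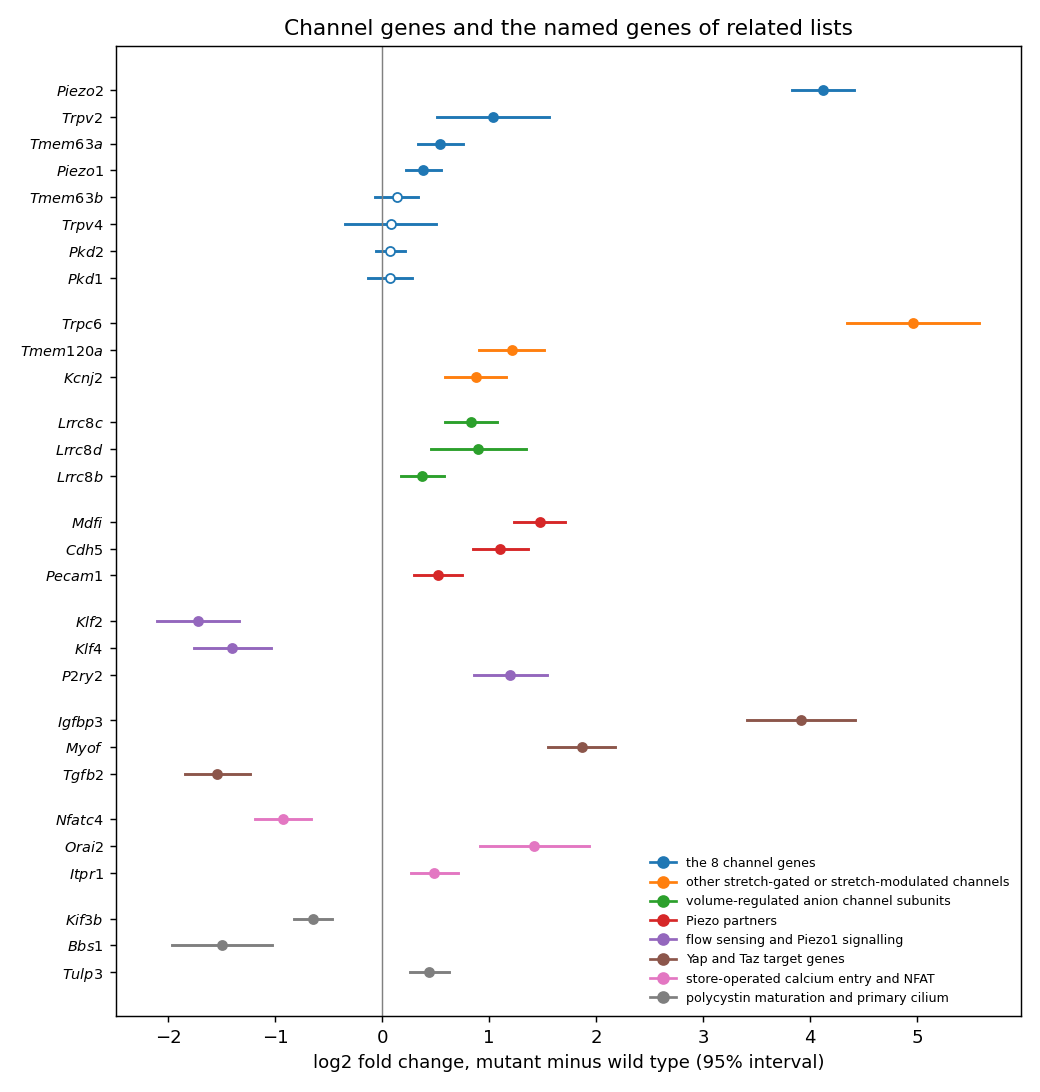
Log2 fold change, mutant minus wild type (x axis), with its 95% interval, of the 8 channel genes and the 3 genes of smallest p in each related list, with open circles for genes that did not pass the test. Piezo2 (4.12), Trpc6 (4.96) and Igfbp3 (3.91) lie apart from the others.

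The counts of the remaining marker lists stand beside 21.5% of all genes tested that rose and 22.9% that fell. Of 10 endothelial markers 3 rose (Pecam1, Emcn and Cdh5) and 3 fell (Cldn5, Kdr and Tek). Of 4 fibroblast markers 2 rose (Lum and Col1a1), and of 4 lymphatic markers Flt4 rose. Among 7 astrocyte markers Gja1 rose and Aldh1l1 fell, and among 4 choroid plexus markers Clic6 rose and Folr1 fell. Several of these small counts changed when single libraries were left out, and their part in the channel genes was not tested.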

How the data were processed

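Brain EC RNA of 4 mutant and 4 wild-type P9 pups was measured by poly(A) RNA sequencing, 1 library per pup, and each library was grouped by its title. Reads were trimmed (Trimmomatic) and aligned to GRCm38 (STAR) by the authors, who deposited raw counts per gene with each gene's exon length and position. The authors also deposited a normalized signal for 16889 genes, the counts divided by a DESeq2 size factor per library. Multiplied back, 100% of these values came out as whole reads (within 0.01). The counting program, the annotation release and the use of strand are not given in the sources used here, and the library kit as labelled marks no strand.

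The tests were run in edgeR 4.0.16 under R 4.3.3 (TMM, filterByExpr with a minimum count of 10, glmQLFit and glmQLFTest, no covariate, Benjamini-Hochberg adjustment over all 16887 genes tested). A gene rose or fell at an adjusted p under 0.05, and was called higher or lower where the log2 fold change was also beyond 1. Intervals are 95%. Levels between genes were compared as RPKM on TMM library sizes and exon length. The ratio of Piezo2 to Piezo1 was tested by exact permutation (Python 3.11.15, SciPy 1.17.1). Symbols were matched for 48970 of 49315 identifiers. Replicates of a group differed beyond sampling noise (chi-square per degree of freedom of 6.70 to 37.1 over 12 pairs), so each counted as 1. At 24833373 or more counts per library, the spread between pups limits most values, and counting error adds to it for genes such as Trpv2 (83 to 400 counts). On simulated counts of this comparison over 16607 genes, 77 of 100 genes changed by a log2 fold of 1 and 99 of 100 changed by 2 were called, with 24 unchanged genes. Those 24 are a larger share of the calls than the limit of 0.05 aims at. Far fewer genes were changed in the simulation than rose or fell in the data, so it does not give the rate of false calls in the data.

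The 8 genes, the 7 related lists and the 10 marker lists were chosen with earlier results of these data known. The genes named are the 8, the 3 of smallest p in each related list among those past the test with a mean of at least 100 scaled counts in the higher group, Klf2 and Klf4, and the 3 genes of highest correlation with each channel gene. The values of 1 further gene of the lists are not reported here. Alternatives were DESeq2 1.42.0, RLE and upper-quartile scaling, no filter or a mean of at least 50 counts, limma 3.58.1 on log2 of the deposited normalized signal plus 1, the replicate number or number that opens the library description as a block, each library left out, and, added after the data were seen, edgeR on the reads recovered from the normalized values and the longest coding transcript as length. Promoter windows came from RefSeq.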

Additional observations from a re-analysis of the deposited data

Results flagged for a closer look

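Among 18 groups of 4 libraries checked (each channel gene and the ratio of Piezo2 to Piezo1, in mutant and in wild-type ECs), 2 had a library far from the others by Dixon's criterion, where chance gives about 1 in 20. For Trpv4, wild-type library 3 had 519 scaled counts against 579 to 588 in the other 3, a gap of 0.871 of the range. For the ratio of Piezo2 to Piezo1, wild-type library 1 was at 2.41% against 2.60 to 2.64% in the other 3, a gap of 0.842 of the range. Both wild-type groups were narrow. Without wild-type library 1 the difference in the log2 ratio was 3.69.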

How the results depend on the processing

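Over 214 values of the channel genes, their counts and the Piezo ratio under other settings, 200 were rated as unchanged. For fold changes and the ratio this meant the same direction and side of the threshold, and for counts a value within 1.5 times. The number called higher fell from 2 to 1 with upper-quartile scaling, which moved the median of all genes to -0.09. With each library left out in turn, log2 fold changes ranged from 0.36 to 0.43 for Piezo1, 4.04 to 4.23 for Piezo2, 0.84 to 1.28 for Trpv2, -0.017 to 0.30 for Trpv4, 0.01 to 0.14 for Pkd1, 0.07 to 0.11 for Pkd2, 0.48 to 0.62 for Tmem63a and 0.10 to 0.21 for Tmem63b. Trpv4 turned to -0.017 without mutant library 2, and the cause was not tested. The number that rose ranged from 4 to 5, that called higher from 1 to 2, and 0 fell throughout. The difference in the log2 Piezo ratio ranged from 3.67 to 3.80, with an exact permutation p of 0.0571, the smallest for 3 against 4 libraries. With the replicate number as a block it was 3.72, with an exact p of 0.125, the smallest for 4 pairs.

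The correlations of deviations of same-numbered libraries were 0.20, 0.21, 0.29 and 0.02, so not every pair deviated together, and not every library correlated best with its own number. The study matched controls to mutants within litters, and libraries with the same number also share the number that opens their descriptions, but no label says that either marks a litter, so the tests without a block were kept. The block moved the genes called over the whole table from 996 higher and 1360 lower to 1032 and 1399, changed no call of the 8 genes, and raised the Piezo partners that rose from 3 to 5. With the opening number as a block, 1050 genes were called higher and 1406 lower, no call of the 8 genes changed, and 4 Piezo partners rose. Of the other stretch channels, 2 in place of 1 fell with DESeq2 and with no filter on low counts. A mean of at least 50 counts, which tests fewer genes (12930), left 810 called lower over the whole table, and every other count over all genes stayed within 1.5 times. With edgeR on recovered reads, added after the data were seen, 1008 genes were called higher and 1398 lower. All 21 other named genes kept their direction and passed the test in every setting run, but 2 passed the log2 limit of 1 with single libraries left out: Lrrc8d without mutant library 3 (1.00) or wild-type library 4 (1.05), and Nfatc4 without mutant library 3 (-1.01). In marker lists, settings moved small counts: without mutant library 3, 4 astrocyte and 3 choroid plexus markers fell, and without wild-type library 3, 3 microglia and macrophage markers rose.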
